A study of Mus musculus with 20 samples.

Results

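Expression was followed for 7 genes that act in the p53 pathway or are recurrent drivers of pancreatic cancer: Trp53, Mdm2, Cdkn1a, Cdkn2a, Cdkn2b, Myc and Smad4. They were chosen by gene symbol, with no threshold on a measured value but with earlier results of these data known, and each matched 1 of the 46983 genes in the count table. The 20 RNA-seq libraries came from KPC pancreatic tumours, grown orthotopically from cultured KPC cells in C57BL/6 mice that received no treatment and harvested at 2 weeks. The 4 groups of 5 libraries were CD45+ leukocytes selected on magnetic beads from tumours in IL33-/- hosts (IL33KO sorted) and in wild-type hosts (WT sorted), and bulk tumour from IL33-/- hosts (IL33KO bulk) and from wild-type hosts (WT bulk). KPC cells derive from mice in which driver alleles, mutant Trp53 among them, are switched on in the pancreas by Cre recombinase, so the injected tumour cells carry their own driver alleles in both kinds of host, and the IL33-/- genotype belongs to the host. The labels do not say which KPC line was injected into which mouse, how the Il33 allele was made, or whether sorted and bulk libraries came from the same tumours.

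p53, the product of Trp53, is a transcription factor activated by DNA damage and oncogene stress. It induces Cdkn1a, which encodes the cyclin-dependent kinase inhibitor p21, and Mdm2, whose product is the ubiquitin ligase that returns p53 to a low level. Cdkn2a encodes a pair of unrelated proteins from alternative first exons: INK4A, which inhibits the cyclin D kinases and keeps RB active, and ARF, which inhibits Mdm2. Cdkn2b, its neighbour, encodes INK4B, another inhibitor of the cyclin D kinases. Myc encodes a growth-promoting transcription factor that binds DNA as a dimer with Max, and Smad4 the shared partner of the receptor-activated SMADs in TGF-beta and BMP signalling. In pancreatic cancer, loss of Cdkn2a, Trp53 and Smad4 function is frequent, and Myc acts downstream of RAS signalling. Gene-level counts do not separate mutant from normal Trp53 transcripts, or INK4A from ARF transcripts.

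In GENCODE M21 (GRCm38, mm10), Trp53 (ENSMUSG00000059552.13) lies on chromosome 11 at 69580359 to 69591873 on the plus strand, Mdm2 (ENSMUSG00000020184.14) on chromosome 10 at 117688875 to 117710758 on the minus strand, and Cdkn1a (ENSMUSG00000023067.13) on chromosome 17 at 29090976 to 29100727 on the plus strand. Cdkn2a (ENSMUSG00000044303.6, chromosome 4, 89274471 to 89294653) and Cdkn2b (ENSMUSG00000073802.4, 89306299 to 89311039) are both on the minus strand, with 11645 bases between them. Myc (ENSMUSG00000022346.14) is on chromosome 15 at 61985391 to 61990374 on the plus strand. Cdkn1a shares 273 exon bases with an antisense transcript that is not a row of the count table.

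The RefSeq promoter windows (GRCm38.p6, from 250 bases before to 50 after a start) matched 5 of the 7 genes. Of these, the stretch before the distal Cdkn1a start is shown because it holds a full p53 response element, the stretches before both Cdkn2a starts and the Cdkn2b start because these neighbours are compared below, and a stretch at the Trp53 start because it holds CACGTG, the E-box bound by MYC and MAX. Capitals mark the p53 element and the E-box. All are written 5′ to 3′ on the strand of the gene.
Cdkn1a, chr17:29090729-29090978, plus strand: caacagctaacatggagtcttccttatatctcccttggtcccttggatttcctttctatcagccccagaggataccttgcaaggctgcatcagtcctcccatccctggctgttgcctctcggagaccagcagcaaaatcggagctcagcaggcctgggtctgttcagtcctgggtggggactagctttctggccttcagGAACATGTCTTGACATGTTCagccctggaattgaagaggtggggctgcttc
Cdkn2a upstream start, chr4:89294620-89294869, minus strand: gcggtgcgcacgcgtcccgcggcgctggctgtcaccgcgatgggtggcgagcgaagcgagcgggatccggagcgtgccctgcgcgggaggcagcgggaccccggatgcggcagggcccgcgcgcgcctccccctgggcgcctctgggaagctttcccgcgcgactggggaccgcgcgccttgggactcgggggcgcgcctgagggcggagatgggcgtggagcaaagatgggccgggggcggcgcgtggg
Cdkn2a downstream start, chr4:89282193-89282442, minus strand: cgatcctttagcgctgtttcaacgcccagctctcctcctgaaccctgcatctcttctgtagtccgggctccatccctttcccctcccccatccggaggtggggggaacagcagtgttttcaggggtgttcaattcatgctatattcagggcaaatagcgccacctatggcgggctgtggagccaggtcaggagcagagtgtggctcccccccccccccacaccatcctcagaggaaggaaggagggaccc
Cdkn2b, chr4:89311033-89311282, minus strand: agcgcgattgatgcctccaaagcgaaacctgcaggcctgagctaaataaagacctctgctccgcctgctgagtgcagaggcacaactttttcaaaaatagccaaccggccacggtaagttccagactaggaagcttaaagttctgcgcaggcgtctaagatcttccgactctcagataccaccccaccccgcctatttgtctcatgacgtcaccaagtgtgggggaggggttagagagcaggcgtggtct
Trp53, chr11:69580357-69580386, plus strand: actttcccctccCACGTGctcaccctggct

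The p53 element was searched on both strands as a pair of adjacent half-sites with at most 1 mismatch, and the Cdkn1a match begins at position −51 from the start. Such an element was present in 29 of 32851 promoter windows of the mouse genome (0.0883%), and CACGTG in 7.15% of them. Neither motif was found in the windows of Cdkn2a, Cdkn2b or Mdm2. Sequence outside the windows, introns included, was not searched, so these genes may hold either motif elsewhere. The whole window at the upstream Cdkn2a start was 77.0% G or C with 45 CpG dinucleotides, against 60.3% and 12 at the downstream start and 57.7% and 18 at Cdkn2b. These matches describe letters in a window and were not tied to binding in these tumours.

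Counts summed over genes ran from 51273064 to 80957402 per library. Levels are given as CPM, the count scaled to the effective library size, and 3 counts corresponded to 0.0326 to 0.0686 CPM. The lowest of the 7 genes, Cdkn2b, still had at least 225 counts in every library. Pan-leukocyte markers (Ptprc and 9 others) summed to 8103 to 10338 CPM in IL33KO sorted and 8131 to 10707 CPM in WT sorted libraries, against 748 to 1478 CPM in IL33KO bulk and 631 to 1432 CPM in WT bulk. The 12 tumour epithelium markers (Krt8, Krt18, Epcam and others) summed to 2046 to 3178 CPM in IL33KO sorted and 1182 to 2985 CPM in WT sorted, against 7322 to 10229 CPM in IL33KO bulk and 8681 to 10919 CPM in WT bulk, so RNA of epithelial genes was present in every sorted library. Acinar markers, from normal pancreas, summed to 866 to 50660 CPM in IL33KO sorted (highest in library 3) and 781 to 5212 CPM in WT sorted, against 25.0 to 1932 CPM in IL33KO bulk and 38.8 to 10678 CPM in WT bulk. No gene of any marker list was at 0 throughout a group. Il33 itself was counted in every library labelled IL33KO (705 to 1123 counts sorted, 3043 to 4452 bulk) as in WT (272 to 1084 counts sorted, 4001 to 4726 bulk), and gene-level counts cannot check that label, so these groups are named by it.

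Sorted leukocytes differed from bulk tumour in all 7 genes. Cdkn1a and Mdm2 were higher in sorted leukocytes, and Trp53, Cdkn2a, Cdkn2b, Myc and Smad4 were lower (edgeR quasi-likelihood test over 20 libraries, Benjamini-Hochberg adjusted p under 0.05). The background was wide: 75.4% of the 18145 genes tested passed this comparison, 37.4% higher and 38.0% lower, and the count of 7 is to be read against those shares. Ranges of CPM over the 10 sorted and the 10 bulk libraries did not overlap for Cdkn1a, Mdm2, Cdkn2a and Cdkn2b, as for 36.4% of all genes. In a mixed tissue, fewer cells of a type and less RNA per cell cannot be told apart. Only the sorted cells were selected on magnetic beads, so handling and compartment cannot be told apart in any sorted against bulk difference.

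**Figure D1:**
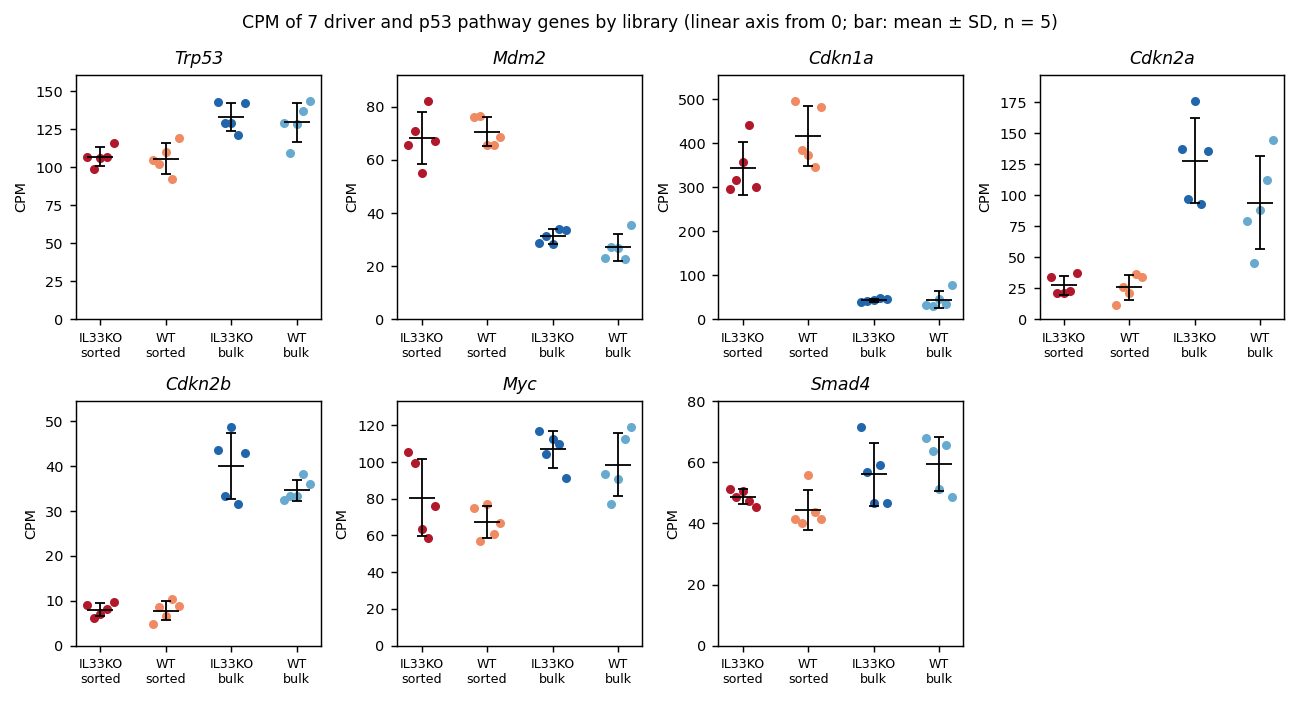
CPM of each gene (vertical axes, linear from 0) in the 5 libraries of each group (points, replicates 1 to 5 from left), with mean ± SD as bars. Cdkn1a and Mdm2 sit higher in all sorted than in all bulk libraries, Cdkn2a and Cdkn2b sit lower, and the IL33KO and WT points of each compartment overlap for every gene.

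Cdkn1a, the canonical p53 target, had the largest difference of the 7. It stood at 297, 317, 357, 442 and 302 CPM in IL33KO sorted libraries and at 497, 384, 373, 347 and 482 CPM in WT sorted libraries. In bulk tumour it stood at 39.4, 42.3, 44.0, 47.8 and 46.7 CPM in IL33KO and at 32.0, 30.2, 46.7, 35.2 and 77.4 CPM in WT. The lowest sorted library was thus far above the highest bulk library, WT bulk 5, which itself stood apart from the other bulk libraries. The difference was 8.55-fold (log2 +3.10, SE 0.16, 95% interval 2.77 to 3.42, edgeR adjusted p = 2.16e-12), and 4.83% of all genes had one at least as large. The 10 pan-leukocyte markers, all higher in sorted libraries, had a median log2 difference of +3.29 beside it, and the part of leukocyte content in the Cdkn1a difference was not tested.

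Mdm2, which p53 also induces, followed the same direction with a smaller difference. It stood at 65.8, 71.0, 55.0, 82.2 and 67.2 CPM in IL33KO sorted and 76.1, 76.5, 65.7, 65.5 and 68.7 CPM in WT sorted libraries. Bulk values were 28.6, 31.4, 28.2, 34.0 and 33.8 CPM in IL33KO and 23.2, 27.1, 26.8, 22.7 and 35.6 CPM in WT. All sorted libraries were above all bulk libraries, a 2.39-fold difference (log2 +1.25, SE 0.09, 95% interval 1.08 to 1.43, edgeR adjusted p = 1.11e-10).

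Trp53, which encodes the factor acting on both genes, moved little and in the other direction. It stood at 107, 98.6, 106, 107 and 116 CPM in IL33KO sorted and 104, 102, 110, 92.5 and 119 CPM in WT sorted libraries, against 143, 129, 129, 121 and 142 CPM in IL33KO bulk and 129, 109, 128, 137 and 144 CPM in WT bulk. The IL33KO sorted libraries were all below the IL33KO bulk libraries, while the WT ranges overlapped. The log2 difference was −0.30 (SE 0.06, 95% interval −0.43 to −0.18, edgeR adjusted p = 0.000142). The coefficient of variation of Trp53 was 5.76% in IL33KO sorted and 9.39% in WT sorted, against 7.03% in IL33KO bulk and 10.01% in WT bulk. Its maximum was the smallest of the 7 genes. Within single groups, Smad4 in IL33KO sorted (5.03%), Mdm2 in WT sorted (7.73%) and Cdkn2b in WT bulk (6.81%) varied less.

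The neighbours Cdkn2a and Cdkn2b, inhibitors of the cyclin D kinases, fell together in sorted leukocytes. Cdkn2a stood at 33.8, 21.2, 21.4, 23.1 and 37.3 CPM in IL33KO sorted and 11.4, 26.3, 21.1, 36.7 and 34.0 CPM in WT sorted libraries. In bulk tumour it reached 137, 96.8, 176, 93.0 and 136 CPM in IL33KO and 79.6, 45.1, 88.4, 112 and 145 CPM in WT. WT sorted 1 was the lowest sorted library and WT bulk 2 the lowest bulk library, and sorted and bulk ranges stayed apart. Cdkn2a was 4.12-fold lower in sorted leukocytes (log2 −2.04, SE 0.22, 95% interval −2.51 to −1.57, edgeR adjusted p = 9.82e-08).

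Cdkn2b stood at 8.98, 6.15, 7.09, 8.22 and 9.76 CPM in IL33KO sorted and 4.77, 8.52, 6.56, 10.4 and 8.87 CPM in WT sorted libraries. Its bulk values were 43.7, 33.3, 48.7, 31.5 and 42.9 CPM in IL33KO and 32.5, 33.4, 33.3, 38.2 and 36.0 CPM in WT. Again WT sorted 1 was the lowest library and no sorted library reached a bulk one. Cdkn2b was 4.70-fold lower in sorted leukocytes (log2 −2.23, SE 0.13, 95% interval −2.50 to −1.96, edgeR adjusted p = 1.24e-11), and 5.87% of all genes had a difference at least as far below 0. Per exon length, Cdkn2a exceeded Cdkn2b 4.00 ± 0.53 times in IL33KO sorted and 3.81 ± 0.65 times in WT sorted, against 3.74 ± 0.33 times in IL33KO bulk and 3.18 ± 1.14 times in WT bulk (SD, n = 5 each), so the ratio of the neighbours overlapped between compartments while both levels fell. The 12 tumour epithelium markers, all lower in sorted libraries, had a median log2 difference of −2.04. Fibroblast markers (9 of 10 lower, 1 higher, median −1.96), mesothelium markers (6 of 7 lower, median −2.41) and endothelium markers (7 of 8 lower, 1 higher, median −0.95) were also lower. The lists share genes: the higher fibroblast marker, Thy1 (+2.04), is also a T cell marker. Msln is in both the epithelium and the mesothelium list. The part of epithelial, fibroblast, mesothelium and endothelium content in the Cdkn2a and Cdkn2b differences was not tested.

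Myc and Smad4 were lower in sorted leukocytes by amounts that left the groups overlapping. Myc stood at 105, 99.3, 63.7, 58.7 and 75.9 CPM in IL33KO sorted and 74.9, 56.9, 77.4, 60.5 and 66.7 CPM in WT sorted libraries, against 117, 104, 113, 110 and 91.1 CPM in IL33KO bulk and 93.4, 77.2, 91.0, 113 and 119 CPM in WT bulk. IL33KO sorted 1 and 2 lay within the bulk range and the other sorted libraries near or below its lower end. The log2 difference was −0.48 (SE 0.11, 95% interval −0.71 to −0.25, edgeR adjusted p = 0.000597).

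Smad4 (ENSMUSG00000024515.13), on chromosome 18 at 73639009 to 73703780 on the minus strand, stood at 51.3, 48.7, 50.7, 47.2 and 45.3 CPM in IL33KO sorted and 41.3, 40.1, 55.9, 43.8 and 41.3 CPM in WT sorted libraries, against 71.5, 56.7, 46.8, 59.2 and 46.6 CPM in IL33KO bulk and 67.8, 63.9, 51.3, 65.6 and 48.7 CPM in WT bulk. WT sorted 3 was well above the other WT sorted libraries, and bulk libraries 3 and 5 of both genotypes reached down into the sorted range. The log2 difference was −0.31 (SE 0.09, 95% interval −0.50 to −0.13, edgeR adjusted p = 0.00357).

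Taken within each host genotype, 6 of the 7 genes passed in IL33KO libraries (63.0% of all genes did) and all 7 in WT libraries (68.0%). Smad4 was the exception, at log2 −0.21 in IL33KO (95% interval −0.47 to 0.05, edgeR adjusted p = 0.156) and −0.42 in WT (−0.68 to −0.16, adjusted p = 0.00624). Myc passed in IL33KO at log2 −0.41 (adjusted p = 0.0281), but the call was lost without IL33KO sorted 3, 4 or 5 or IL33KO bulk 1 or 3, with adjusted p of 0.0508 to 0.0862. The largest within-genotype values were those of Cdkn1a, at log2 +2.96 in IL33KO and +3.23 in WT.

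**Figure D2:**
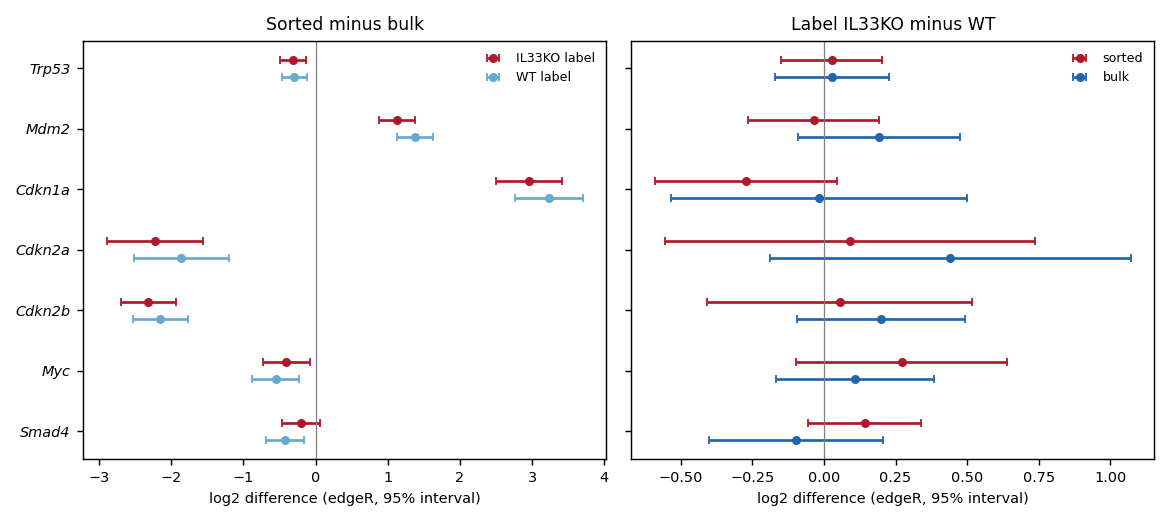
Log2 differences by edgeR (horizontal axes, points) with 95% intervals (bars) for the 7 genes: sorted minus bulk within each host label at left, IL33KO minus WT within each compartment at right. At left, all intervals but that of Smad4 in IL33KO lie clear of 0; at right, all 14 intervals include 0.

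Levels of different genes were compared per kilobase of exon (RPKM). In sorted leukocytes Cdkn1a was highest, at 96.5 ± 16.9 RPKM in IL33KO and 117 ± 19.1 RPKM in WT (SD, n = 5 each), clear of every other gene. Myc, Trp53 and Cdkn2a followed without clear order, at 29.7, 26.4 and 23.3 RPKM in IL33KO and 24.8, 26.1 and 22.1 RPKM in WT. Mdm2 and Smad4 came next with overlapping ranges, at 13.4 and 13.1 RPKM in IL33KO and 13.9 and 11.99 RPKM in WT. In WT sorted libraries the Cdkn2a range reached down to 9.75 RPKM and overlapped that of Mdm2. Cdkn2b was lowest and apart, at 5.79 RPKM in IL33KO and 5.62 RPKM in WT. In bulk tumour the order was headed by Cdkn2a, at 109 ± 29.1 RPKM in IL33KO, apart from the next gene, and 80.2 ± 31.7 RPKM in WT, where its range overlapped that of Myc. Myc, Trp53 and Cdkn2b lay between 24.9 and 39.4 RPKM, each overlapping its neighbour in the order. Smad4 and Cdkn1a overlapped below them, at 15.1 and 12.4 RPKM in IL33KO and 16.02 and 12.5 RPKM in WT, and Mdm2 was lowest and apart, at 6.13 and 5.33 RPKM. Cdkn1a was therefore the highest of the 7 in sorted leukocytes and sixth in bulk tumour.

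The host genotype was compared within sorted leukocytes. In the main edgeR fit, none of the 7 genes passed between IL33KO and WT hosts, nor did any gene of the pathway lists described below. Over the whole table, 2 of 16731 genes did (0.012%), with 12.9% at an unadjusted p under 0.05. Cdkn1a was the nearest, at 343 ± 60.1 CPM in IL33KO against 417 ± 67.9 CPM in WT, below the WT median in 4 of 5 libraries (log2 −0.27, SE 0.14, 95% interval −0.59 to 0.05, edgeR adjusted p = 0.465, two-sided exact permutation p = 0.103). Myc averaged 80.6 ± 20.98 CPM in IL33KO and 67.3 ± 8.85 CPM in WT (log2 +0.27, 95% interval −0.10 to 0.64, edgeR adjusted p = 0.527), with IL33KO sorted 1 and 2 above every WT library. Smad4 averaged 48.7 ± 2.45 CPM in IL33KO and 44.5 ± 6.53 CPM in WT, and was above the WT median in 5 of 5 libraries, but WT sorted 3 exceeded all of them (log2 +0.14, 95% interval −0.05 to 0.34, edgeR adjusted p = 0.535). Trp53, Mdm2, Cdkn2a and Cdkn2b differed by at most 0.09 on the log2 scale. For Cdkn2a the interval was wide, from −0.55 to 0.74, and for Trp53 it was −0.15 to 0.20. The IL33KO and WT ranges overlapped for all 7 genes; they were apart for 3.69% of all genes. The smallest p that 5 against 5 libraries allow in the exact test is 0.00794.

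In bulk tumour, too, none of the 7 genes passed between IL33KO and WT hosts, and neither did any of the 17258 genes tested (0.0%, with 6.36% at an unadjusted p under 0.05; 19 genes passed without WT bulk 5). Cdkn2a averaged 128 ± 34.1 CPM in IL33KO and 94.0 ± 37.2 CPM in WT, above the WT median in 5 of 5 libraries (log2 +0.44, 95% interval −0.19 to 1.07, edgeR adjusted p = 0.724, exact permutation p = 0.167). Mdm2 averaged 31.2 ± 2.74 CPM in IL33KO and 27.1 ± 5.18 CPM in WT, above the WT median in 5 of 5 (log2 +0.19, 95% interval −0.09 to 0.48, edgeR adjusted p = 0.724). Cdkn2b, Myc and Trp53 had log2 differences of +0.20, +0.11 and +0.03, and Smad4 of −0.10. The interval of Trp53 ran from −0.17 to 0.23. Ranges overlapped for all 7 genes, against 0.661% of all genes with ranges apart.

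The Cdkn1a value in bulk tumour rested on WT bulk 5. With all libraries it averaged 44.0 ± 3.41 CPM in IL33KO and 44.3 ± 19.6 CPM in WT (log2 −0.02, 95% interval −0.53 to 0.50, edgeR adjusted p = 0.981), although all 5 IL33KO libraries were above the WT median of 35.2 CPM. Without WT bulk 5, at 77.4 CPM, the log2 difference was +0.28 (edgeR adjusted p = 0.214). Leaving out WT bulk 3 as well, an alternative added after the data were seen, gave +0.38 (edgeR adjusted p = 0.0465), with 2174 genes passing in all. Pan-leukocyte scores, the mean log2 CPM of the 10 markers, were 5.92 to 6.93 in IL33KO bulk, and in WT bulk 6.50 and 6.85 in libraries 3 and 5 and 5.65 to 5.68 in the other 3. WT bulk 3 and 5 were left out as the leukocyte-rich WT libraries, and they also held the highest WT bulk Cdkn1a, 46.7 and 77.4 CPM. IL33KO bulk 5, with the highest score of 6.93, was kept. The choice itself thus favoured a positive difference, and the +0.38 is no test of the host genotype. The 12 pancreatic acinar markers summed to 25.0 to 1932 CPM in IL33KO bulk, and in WT bulk to 10678 CPM in library 5 and 38.8 to 42.3 CPM in the others. With the leukocyte score as a covariate, the Cdkn1a genotype difference stayed below 0 and was not called. Over 21 alternatives it ran from −0.14 to +0.38. The relation of bulk Cdkn1a to the leukocyte score is given below. The part of acinar content in the Cdkn1a values was not tested. With weights for library quality, limma voom called Mdm2 in bulk tumour (log2 +0.41, adjusted p = 0.0125) among 3371 genes in all.

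Whether the host genotype acted differently in the compartments was tested as an interaction over 20 libraries. None of the 7 genes passed, and none of 18145 genes did (0.0%, with 11.2% at an unadjusted p under 0.05; 27 genes passed without WT bulk 5). The interaction was nearest for Mdm2 (log2 −0.25, 95% interval −0.60 to 0.10, edgeR adjusted p = 0.531). For Cdkn1a it was −0.27 (95% interval −0.88 to 0.33), and −0.72 (edgeR adjusted p = 0.0202) without WT bulk 3 and 5, where 2847 genes passed in all. That pair held the highest WT bulk Cdkn1a, so the choice of libraries itself favoured the more negative value. The weighted limma voom fit called Cdkn1a (−0.65, adjusted p = 0.0291), Mdm2 (−0.46, 0.0198) and Smad4 (+0.39, 0.0328), among 3406 genes in all.

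Within a compartment, the level of several genes moved with the markers of its cells. Each gene was correlated with the mean log2 CPM of the 12 epithelium and of the 10 leukocyte markers, in the 10 sorted and the 10 bulk libraries separately, 28 relations in all. In bulk tumour, Cdkn1a rose with the leukocyte score (Pearson r = 0.82, permutation p = 0.00137, Benjamini-Hochberg adjusted p = 0.026; Spearman rho = 0.85, permutation p = 0.00256, adjusted p = 0.0615). So did Mdm2 (r = 0.83, permutation p = 0.0042, adjusted p = 0.0281; rho = 0.70, permutation p = 0.0311, adjusted p = 0.0968). Without WT bulk 2 and 4, the libraries farthest from the median score, r was 0.74 for Cdkn1a (exact permutation p = 0.0337) and 0.81 for Mdm2 (exact permutation p = 0.0171). Within genotypes, r for Cdkn1a was 0.40 over the 5 IL33KO and 0.96 over the 5 WT bulk libraries, and for Mdm2 0.77 and 0.83.

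In sorted leukocytes, Cdkn2a rose with the epithelium score (r = 0.87, permutation p = 0.0031, adjusted p = 0.0281; rho = 0.72, permutation p = 0.0245, adjusted p = 0.0858) and fell with the leukocyte score (r = −0.83, permutation p = 0.00186, adjusted p = 0.026; rho = −0.83, permutation p = 0.00439, adjusted p = 0.0615). Cdkn2b did likewise, with r of 0.82 (permutation p = 0.00502, adjusted p = 0.0281; rho = 0.72, adjusted p = 0.0858) and −0.79 (permutation p = 0.00619, adjusted p = 0.0289; rho = −0.79, adjusted p = 0.0735). The relation to the epithelium score rested on WT sorted 1 and 4: without them r was 0.55 for Cdkn2a (exact permutation p = 0.163) and 0.43 for Cdkn2b (exact permutation p = 0.287). The relation to the leukocyte score, without IL33KO sorted 5 and WT sorted 4, had r of −0.76 for Cdkn2a (exact permutation p = 0.0307) and −0.67 for Cdkn2b (exact permutation p = 0.0692). Within genotypes, the r of Cdkn2a with the epithelium score was 0.49 over the 5 IL33KO and 0.97 over the 5 WT sorted libraries, and with the leukocyte score −0.92 and −0.81. No rank correlation passed after adjustment, and the remaining 22 relations did not pass by either measure. Score and gene come from the same library and scaling in each point. With CPM by total counts, r in sorted libraries with the leukocyte score was weaker, −0.69 for Cdkn2a and −0.58 for Cdkn2b. With the epithelium score it was 0.89 and 0.84.

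**Figure D3:**
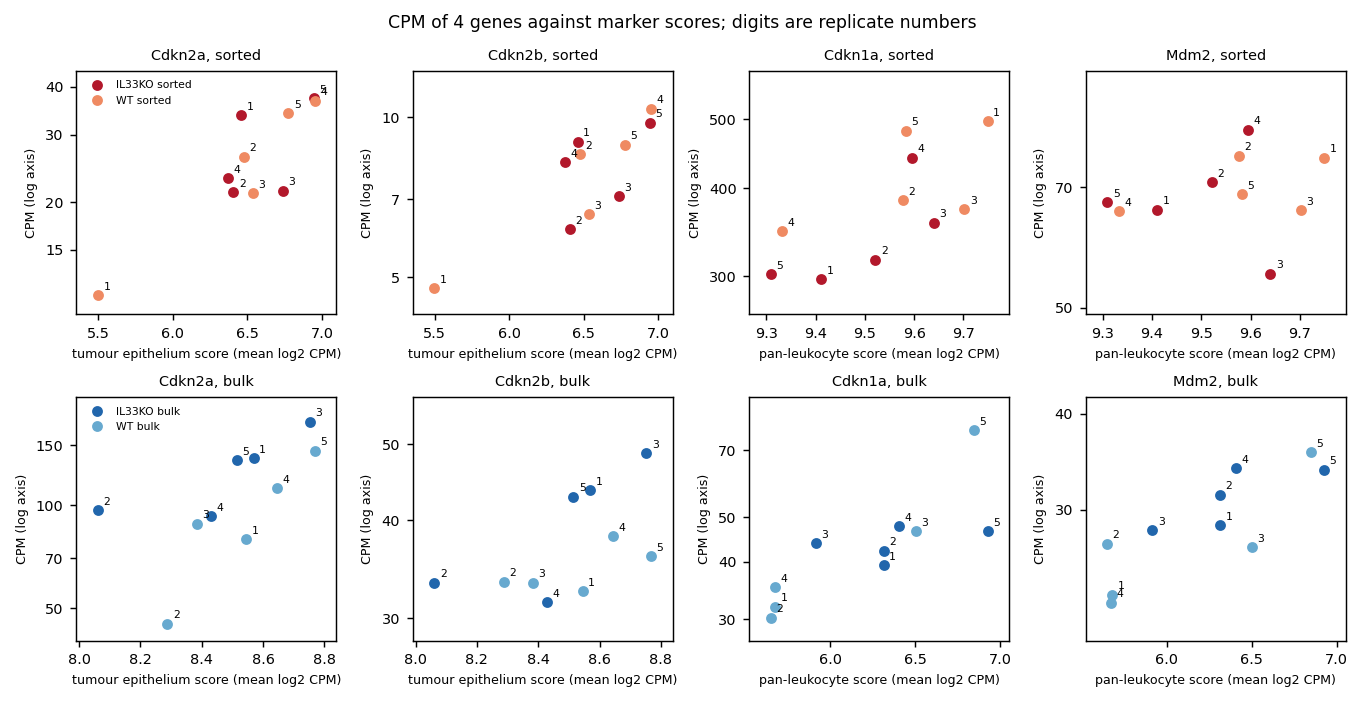
CPM (vertical axes, log scale) of Cdkn2a and Cdkn2b against the tumour epithelium score, and of Cdkn1a and Mdm2 against the pan-leukocyte score (horizontal axes, mean log2 CPM of the markers), in sorted (top) and bulk (bottom) libraries, with digits for replicates. WT sorted 1 lies alone at the lowest epithelium score, 5.50, and WT bulk 5 at the highest bulk Cdkn1a, 77.4 CPM.

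The genes around the 7 were followed in 9 lists, whose counts stand against 37.4% higher, 38.0% lower and 75.4% called among all genes. Of 32 further p53 target genes, 17 were higher and 9 lower in sorted leukocytes than in bulk tumour, 6 did not pass, and their median log2 difference was +0.47 against +0.01 over all genes. The antiproliferative gene Btg2 was at 1493 ± 206 CPM in sorted and 43.9 ± 6.33 CPM in bulk libraries (SD, n = 10 each; log2 +5.08, edgeR adjusted p = 2.8e-17). Beside it, the 10 pan-leukocyte markers had log2 differences of +2.90 to +3.42. The 8 neutrophil markers had +3.86 to +4.73 and the 8 B cell markers +0.84 to +4.32. The part of cell content or handling in the Btg2 difference was not tested. Plk2 (log2 +2.21), the stress-responsive sestrin gene Sesn2 (+1.80) and Pmaip1, which encodes the pro-apoptotic protein NOXA (+1.53), were also higher. These had the smallest p of the list; among the 9 lower targets, named after their values were seen, were the death receptor gene Tnfrsf10b (log2 −2.04, edgeR adjusted p = 3.47e-11), Perp (−1.95), Phlda3 (−1.79) and Eda2r (−3.09). Among 19 regulators and partners of p53, 5 were higher, 7 lower and 7 did not pass (median +0.08, and −0.04 without WT bulk 3 and 5). Trp53bp1, a DNA repair factor that binds p53, fell by 0.83 on the log2 scale, while the phosphatase gene Ppm1d (+0.61), Rpl11, a ribosomal protein that inhibits Mdm2 (+0.67), and the p53 relative Trp73 (+2.70, at 0.558 ± 0.218 against 0.0863 ± 0.0494 CPM) rose. Another p53 relative, Trp63, named after its value was seen, fell by 2.51 on the log2 scale (edgeR adjusted p = 1.81e-06). It stood at 0.0947 ± 0.0451 CPM in sorted and 0.550 ± 0.275 CPM in bulk libraries. The bulk Trp73 and sorted Trp63 levels lay near the 0.0326 to 0.0686 CPM of 3 counts.

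Of 18 G1 cyclins, kinases, inhibitors and RB family genes, 8 were higher, 5 lower and 5 did not pass (median +0.14), a share called near the 75.4% of all genes. Cdk6, a kinase that INK4A and INK4B inhibit, was at 52.4 ± 7.19 CPM in sorted and 105 ± 12.3 CPM in bulk libraries (log2 −1.01). Its cyclin partner Ccnd1 was at 142 ± 23.5 CPM in sorted and 431 ± 40.8 CPM in bulk libraries (−1.60). Rb1, which encodes the retinoblastoma protein, was higher (+1.64), as was the inhibitor gene Cdkn2d (+1.43). In the list of 12 proliferation genes, 2 were higher, 7 lower and 3 did not pass (median −0.37), again a share called near the 75.4% of all genes, of which 38.0% were lower. Mki67 was at 109 ± 19.4 CPM in sorted and 144 ± 15.5 CPM in bulk libraries (log2 −0.40, edgeR adjusted p = 0.00169), and Pcna was higher in sorted libraries (+0.32).

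Of 12 genes of the MYC network, 7 were higher, 1 was lower and 4 did not pass (median +0.34), beside 37.4% higher and 38.0% lower among all genes. Mxd1, an antagonist that competes for Max, stood at 354 ± 93.4 CPM in sorted and 44.0 ± 6.00 CPM in bulk libraries (log2 +3.00, edgeR adjusted p = 2.81e-13), and Max itself rose by 1.29 on the log2 scale. Without WT bulk 3 and 5, 6 were higher and 2 lower. The gene that fell was the paralogue Mycn (−2.40, at 0.676 ± 0.145 against 3.71 ± 1.55 CPM). Of 20 MYC target genes, 4 were higher, 11 lower and 5 did not pass (median −0.35; 75.4% of all genes were called), with Pus7 (−1.08), Polr1b (−0.87), Nop56 (−0.72) and Tert (−2.36) falling; the first 3 act in RNA modification, ribosomal RNA transcription and ribosome assembly, and Tert is the catalytic subunit of telomerase.

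Of 12 SMAD family genes and partners 11 were tested, with 5 higher and 6 lower (median −0.73), beside 37.4% higher and 38.0% lower among all genes. Among the receptor-activated SMADs that pair with Smad4, Smad5 (log2 −1.08), Smad3 (−1.05) and Smad1 (−0.94) were lower and Smad2, named after its value was seen, was higher (+0.25, edgeR adjusted p = 0.000278). Skil, an inhibitor of SMAD signalling, was higher (+0.69). The 9 TGF-beta and BMP target genes split into 3 higher, 3 lower and 3 that did not pass. Tgfbi was at 1517 ± 408 CPM in sorted and 162 ± 65.5 CPM in bulk libraries (log2 +3.24) and Bambi, a decoy receptor, at 17.97 ± 4.40 and 1.79 ± 0.69 CPM (+3.33), while Ctgf fell by 2.13 and Ltbp2 by 2.35 on the log2 scale. Of 13 RAS drivers and ERK output genes, 3 were higher, 7 lower and 3 did not pass (median −0.19), a share called near the 75.4% of all genes. Pdx1, the pancreatic transcription factor whose promoter is commonly used to drive Cre in this model, was at 10.3 ± 3.00 CPM in sorted and 51.2 ± 7.30 CPM in bulk libraries (log2 −2.31), and the ERK-responsive genes Etv4 (−2.33) and Spry4 (−2.02) were also lower, whereas Braf was higher (+0.80). The ERK-responsive genes went both ways: Dusp6, named after its value was seen, was higher (+0.52, edgeR adjusted p = 1.12e-05).

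**Figure D4:**
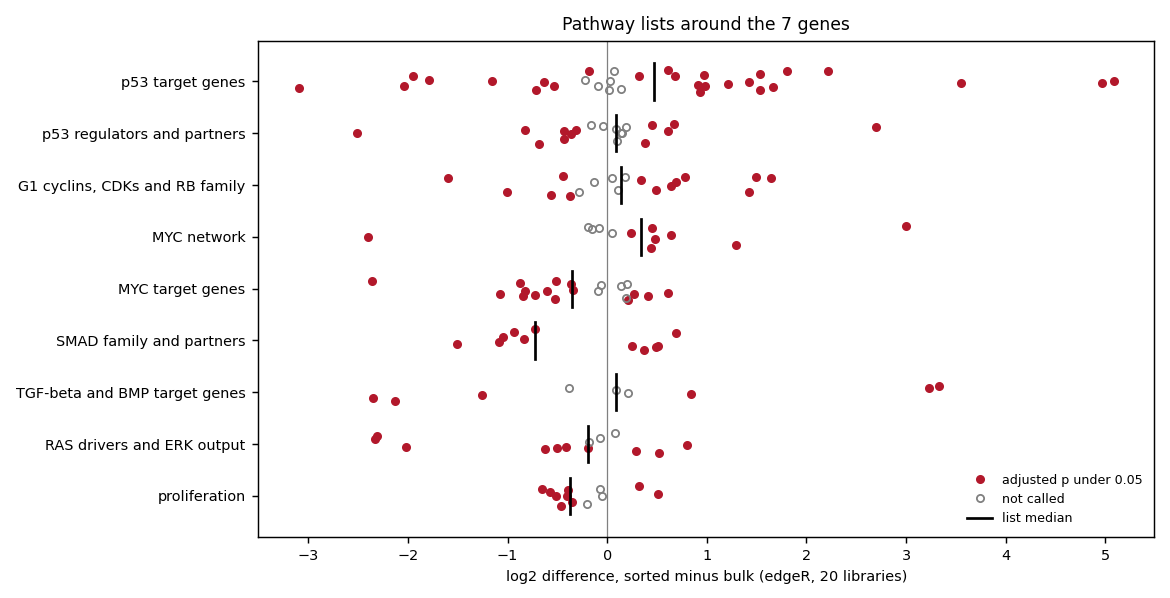
Log2 difference between sorted and bulk libraries (horizontal axis, edgeR over 20 libraries) of each tested gene in the 9 pathway lists, with filled points past an adjusted p of 0.05, open points not, and a black line at the list median. Every list holds genes on both sides of 0, with Btg2, a p53 target, farthest to the right at +5.08.

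Between host genotypes no gene of the 9 lists passed in the main edgeR fits. The lists were not counted between genotypes under the alternatives. There DESeq2 called 566 and voom 400 genes in sorted leukocytes, and 50 and 3371 in bulk tumour. In sorted leukocytes the lowest adjusted p was 0.151, shared by Dcxr (18.8 ± 1.77 CPM in IL33KO against 24.8 ± 1.80 CPM in WT, log2 −0.39), Mga, a Max partner (47.5 ± 6.42 against 36.0 ± 1.68 CPM, +0.41), and Trim33, a SMAD-binding ubiquitin ligase (38.1 ± 2.26 against 30.2 ± 3.03 CPM, +0.34; edgeR, n = 5 each). The other p53 targets nearest to the threshold in sorted leukocytes, Bbc3 (log2 −0.47), Gdf15 (−0.91) and Bax (−0.24), had values below 0, with edgeR adjusted p of 0.286 to 0.311. Cdkn1a was also below 0 (edgeR adjusted p = 0.465). Over the 31 listed targets tested, 13 values were above and 18 below 0. In bulk tumour the lowest adjusted p over the 9 lists was 0.724 (edgeR).

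Genes whose level followed each of the 7 most closely were ranked by Pearson r of log2 CPM after subtracting the 4 group means, over 20 libraries and the 11018 genes averaging 5 CPM or more. The values are descriptions, and all points share depth and scaling. Cdkn1a was followed by Fxyd5 (r = 0.93), Cass4 (0.93) and Ppp1r18 (0.92), and Mdm2 by Stat2 (0.86), Vrk2 (0.85) and Serpinb8 (0.83). Trp53 was followed by E2f4, a factor that binds RB family proteins (0.87), Csnk1d (0.86) and Slc9a3r1 (0.85). Cdkn2a was followed by BC003965 (0.94), Oaf (0.92) and Shb (0.92), and Cdkn2b by Nr2f1 (0.88), Ripply3 (0.88) and the cytokine gene Il34 (0.85). Myc was followed by Fam43a (0.89), Tmem234 (0.87) and Loxl1 (0.80), and Smad4 by Alg10b (0.95), Lrrc8b (0.94) and the chromatin remodelling gene Pbrm1 (0.93). Beyond the first 3, Wfdc2 ranked at position 4 for both Cdkn2a (r = 0.91) and Cdkn2b (0.85), and S100a16 at 8 for Cdkn2a (0.89) and 7 for Cdkn2b (0.83), both named after their values were seen; no other gene was among the first 10 of more than 1 of the 7.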

How the data were processed

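Sequencing libraries were made with a stranded poly(A) kit, per the labels' protocols. The authors deposited raw read counts per gene for 20 libraries, with no normalization, and another table with a size-scaled signal per gene, which served only as an alternative. Picard, HTSeq and DESeq are named in the submitters' processing notes with the mm10 build and no version; for aligner and counting strand the entry is not given in the sources used here, so antisense overlaps are uncertain. The 5 summary lines (26.1 to 40.5% of reads) were left out.

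The 7 genes and all lists were chosen with earlier results of these data known. The fits ran in edgeR 4.0.16 under R 4.3.3 (filterByExpr, TMM with factors of 0.762 to 1.25, robust quasi-likelihood test), two-sided, with Benjamini-Hochberg adjustment over all genes tested at a threshold of 0.05. Genotype was fitted within the 10 libraries of a compartment; sorted against bulk and the interaction used all 20. Log2 CPM used a prior count of 2, and RPKM the union of GENCODE M21 exons. Intervals of differences are t-based from the fit. Single genes were also tested by exact permutation over 252 assignments, and correlations by 100000 permutations. Named list genes are the 4 with the smallest p per list and comparison, of which some are given. Alternatives were DESeq2 1.42.0, limma 3.58.1 (voom, or trend on log2 of the scaled signal plus 1), RLE and upper-quartile factors, no filter, a replicate block, score covariates and left-out libraries. The fits were first tested on simulated data. Replicates of a group all differed beyond sampling noise (lowest chi-square per gene 19.6). The labels give 5 mice per genotype without tying libraries to them, so p-values measure the spread between libraries, which may be partly technical; floors cover counting error only.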

Additional observations from a re-analysis of the deposited data

Results flagged for a closer look

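Of 28 groups of 5 libraries (7 genes in 4 groups), 1 held a library far from the others: Smad4 in WT sorted 3 stood at 55.9 CPM, against 40.1 to 43.8 CPM in the other WT sorted libraries. Chance flags about 1 in 20 such groups. WT sorted 3 and IL33KO bulk 1 had the fewest unaligned reads, 4.33 and 4.80 M against 7.68 to 9.29 M in the other libraries, and each had the highest Smad4 of its group, 55.9 and 71.5 CPM. The part of this in the Smad4 values was not tested.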

How the results depend on the processing

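In the comparison of sorted and bulk libraries, all 7 genes kept direction and call under every one of the 29 alternatives over 20 libraries and within WT; within IL33KO 5 to 7 passed, with Smad4 called by limma voom (log2 −0.25) and with upper-quartile factors (−0.29). Counts in the 9 pathway lists moved by at most 2 genes when WT bulk 3 and 5, or WT sorted 3 and IL33KO sorted 3, were left out together, alternatives added after the data were seen; of the 12 acinar markers, 12 and 0 were then higher in sorted libraries, against 5 with all libraries. Replicate numbers deviated together in some pairs only, with correlations of −0.43 to 0.72. The same-numbered library was the best match among 5 candidates in 6 of 20 pairs, which does not settle whether libraries were paired. The replicate block left 7, 6 and 7 genes called between compartments and 0 between genotypes.

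Between genotypes, the count of called genes among the 7 was 0 under every alternative in sorted leukocytes. In bulk tumour it was 1 with voom (Mdm2) and 1 without WT bulk 3 and 5 (Cdkn1a), the pair with the highest WT bulk Cdkn1a. In the interaction the count was 3 with voom and 1 without WT bulk 3 and 5. Over all genes, DESeq2 called 566 and voom 400 in sorted leukocytes, 50 and 3371 in bulk tumour, and 4 and 3406 in the interaction, against 2, 0 and 0; without WT bulk 3 and 5 they were 2174 in bulk tumour and 2847 in the interaction. Leaving out 1 library gave 1 to 3, 0 to 19 and 0 to 27 genes, and in sorted leukocytes the leukocyte covariate gave 12, the epithelium covariate 1 and the replicate block 1. The cause was not tested.

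Values near 0 changed sign. In sorted leukocytes Cdkn2b was −0.032 with voom, −0.098 with the leukocyte covariate and −0.000809 with the epithelium covariate, and Cdkn2a −0.16 with the leukocyte covariate. In bulk tumour Cdkn1a was +0.37 with voom, +0.012 with upper-quartile factors, +0.068 in the scaled table, +0.074 with the replicate block, +0.065 with the epithelium covariate and +0.38 without WT bulk 3 and 5; Trp53 was −0.030 with voom and −0.00487 with the leukocyte covariate, and Smad4 +0.017 with that covariate. The Trp53 interaction was +0.049 with voom and +0.032 with the leukocyte covariate. Leaving out 1 library gave ranges in sorted leukocytes of −0.017 to 0.078 for Trp53, −0.11 to 0.031 for Mdm2, −0.10 to 0.25 for Cdkn2a and −0.079 to 0.18 for Cdkn2b. In bulk tumour they were −0.024 to 0.068 for Trp53 and −0.12 to 0.28 for Cdkn1a, and −0.067 to 0.033 for the Trp53 interaction. Of the correlations, Smad4 in sorted libraries had r of −0.23 with the epithelium score and −0.13 with the leukocyte score without 2 libraries, and −0.032 with the leukocyte score on total-count CPM; Mdm2 with the bulk epithelium score had 0.043 without 2 libraries and 0.064 on total-count CPM.

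Depth limited none of the 7 genes, which had at least 225 counts in every library; 5 libraries per group and their spread set the width of the intervals. The score covariates were not applied to sorted against bulk.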
